A study of Mus musculus with 6 samples.

Results

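Gap junction genes of the endothelium and the vessel wall were followed across adult C57BL/6 aortic endothelial cells (EC) that carried either a Meis1 vector or its control. The 7 members were chosen by symbol: 6 connexins (Gja1, Gja4, Gja5, Gja3, Gjb2 and Gjc1) and Panx1. They are 7 of 54429 genes listed and of 23 connexin and pannexin genes listed. Gja5 was selected on its rise in the Meis1-OE libraries in these same data, so its difference between the groups is given as a description with no test. Of the 7 members, 5 passed the filter on low counts and entered the test among 16065 genes, and Gja3 and Gjb2 did not.

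Primary EC were exposed to the Meis1-OE vector or to YFP-CTRL, a vector without Meis1, for 48 h. Cells of both groups were sorted at 72 h as YFP+CD31+VEC+, where VEC is VE-cadherin, and were then grown to confluency before RNA was taken. The RNA was depleted of ribosomal RNA, and 3 libraries were sequenced per group. The libraries are named here by the letters A to C of the count table, which the labels do not tie to culture numbers. The cultures were of a selected, expanded population driven by a viral vector, and reads of the vector and of the endogenous Meis1 gene were not separated.

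Connexins are membrane proteins whose subunits assemble into hemichannels, and hemichannels of neighbouring cells dock to form gap junctions that pass ions and small molecules. Arterial endothelium is known for the connexins encoded by Gja5 and Gja4, while Gja1 is widespread in cultured endothelium, at sites of disturbed flow and in smooth muscle. Pannexin channels resemble hemichannels in shape, open to the outside of the cell, and release ATP.

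Totals ran from 34176642 to 47956605 counts per library, and 3 counts, used as the floor of detection, equal 0.0648 to 0.0883 CPM. CPM, the counts of a gene per 1000000 counts of its library, are scaled here by edgeR's TMM factors. Meis1 lay between 2961 and 3477 CPM in the Meis1-OE libraries and between 1.15 and 1.87 CPM in YFP-CTRL, which matched the labels. The YFP-CTRL libraries differed among themselves: the mean log2(CPM + 1) of 15 proliferation genes was 4.63, 5.42 and 6.63 in A, B and C, against 6.65, 6.66 and 6.71 in Meis1-OE. None of those 15 genes passed edgeR's test, 15 of 15 had a positive log2 fold change, 2 had an unadjusted p under 0.05, and DESeq2 called 1. Of all 16065 genes tested, 8185 had a positive value and 2050 were higher at an unadjusted p under 0.05 by edgeR. DESeq2 called 1128 of 54429 genes higher. The part of the difference in proliferation genes in the results below was not tested. Values against YFP-CTRL C alone are given beside the members it touches.

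To show the stretch of DNA that lies before each start site, the 250 bases upstream of Gja5, Gja4 and Gja1, the connexins of endothelium, are given here, from RefSeq with build GRCm38.p6 and 5′ to 3′ on the strand of the gene. Capitals mark a GC box (GGGCGG, either strand), a short promoter element bound by Sp-family factors. The windows are chr3:97032152-97032401 on the plus strand for Gja5, chr4:127314040-127314289 on the minus strand for Gja4 and chr10:56377050-56377299 on the plus strand for Gja1.
Gja5: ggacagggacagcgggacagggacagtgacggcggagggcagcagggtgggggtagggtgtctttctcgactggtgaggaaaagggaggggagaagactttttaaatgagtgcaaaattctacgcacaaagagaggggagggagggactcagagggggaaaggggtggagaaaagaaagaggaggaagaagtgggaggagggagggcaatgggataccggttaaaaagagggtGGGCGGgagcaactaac
Gja4: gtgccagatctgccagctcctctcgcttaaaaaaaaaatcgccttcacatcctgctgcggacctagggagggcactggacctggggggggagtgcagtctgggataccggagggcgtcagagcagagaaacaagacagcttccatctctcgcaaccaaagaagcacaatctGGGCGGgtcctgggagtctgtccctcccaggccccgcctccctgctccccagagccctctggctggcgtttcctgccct
Gja1: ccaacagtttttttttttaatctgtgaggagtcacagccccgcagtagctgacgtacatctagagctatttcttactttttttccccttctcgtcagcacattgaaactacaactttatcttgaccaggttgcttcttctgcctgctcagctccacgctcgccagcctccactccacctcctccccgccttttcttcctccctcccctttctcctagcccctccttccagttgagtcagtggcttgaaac

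Both strands of each window were searched for 3 motifs, which share no overlapping match here: the MEIS core TGACAG, the GC box GGGCGG and the T-box site GGTGTGA. Gja5 held a GC box from base -17 to -12 before its start, and Gja4 held one from -79 to -74. Gja1 held no match to any of the 3 motifs. Among all 32817 windows of this length, 32.7% held the GC box, 15.9% the MEIS core and 3.33% the T-box site. Windows of 6 members were searched, without Gjc1. Of these 6, only Panx1 matched the MEIS core (bases -121 to -116), Gjb2 had a GC box on each strand, and Gja3 had no match. These are matches of letters within a short window and not sites of binding.

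Gja5 encodes connexin 40, the gap junction protein that marks arterial endothelium. Its span is chr3:97032402-97053634. The non-coding gene 4930573H18Rik overlaps it, and since the strand setting is not given, reads of the overlap cannot be told apart, though 4930573H18Rik itself had at most 1 count in each library. The Meis1-OE libraries A, B and C held 2932, 3941 and 4497 counts, and the YFP-CTRL libraries held 18, 53 and 135. In CPM these are 64.1, 86.8 and 97.1 against 0.530, 1.30 and 2.97. The groups did not overlap: the lowest Meis1-OE library was 21.6 times the highest YFP-CTRL library. The group means were 82.7 ± 16.9 CPM and 1.60 ± 1.25 CPM (SD, n = 3 each), a ratio of 51.7 and a fitted log2 fold change of 5.66. The control libraries spread more than the Meis1-OE libraries, with a highest to lowest ratio of 5.61 in YFP-CTRL and 1.51 in Meis1-OE. Against YFP-CTRL C alone, the control nearest to Meis1-OE in its proliferation genes, the Meis1-OE mean was 27.8 times higher.

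The control level of Gja5 was low and not zero. Scaled to the library total alone, in CPM without the TMM factor, it was 0.527 in YFP-CTRL A (exact 95% Clopper-Pearson interval 0.312 to 0.832), 1.19 in B (0.890 to 1.55) and 2.82 in C (2.36 to 3.33). The 3 intervals did not overlap, so the order of the control libraries exceeded counting error, which is all that these intervals cover. The log2 fold change was 6.44 without YFP-CTRL C and 4.69 when the proliferation score entered the fit.

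Gja4 encodes connexin 37, the partner of connexin 40 in arterial endothelium. It lies at chr4:127311420-127314039 on the minus strand. Its counts were 263, 596 and 805 in the Meis1-OE libraries and 4, 10 and 28 in the controls, or 5.75, 13.1 and 17.4 CPM against 0.118, 0.245 and 0.616 CPM. Every Meis1-OE library was above every control, and the lowest was 9.34 times the highest control. Gja4 rose: the mean was 12.1 ± 5.88 CPM against 0.326 ± 0.259 CPM (SD, n = 3 each), with a log2 fold change of 5.14 (SE 0.63, 95% interval 3.68 to 6.61) and an adjusted p of 0.00747 by edgeR's quasi-likelihood test. DESeq2 gave 5.17 with an adjusted p of 2.44e-19. The edgeR call was lost without YFP-CTRL B (log2 fold change 4.96, adjusted p = 0.0515). The log2 fold change was 5.98 without YFP-CTRL C and 4.17 when the proliferation score entered the fit (adjusted p of 0.00185 and 0.0293 by edgeR), and against YFP-CTRL C alone the Meis1-OE mean was 19.6 times higher.

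**Figure D1:**
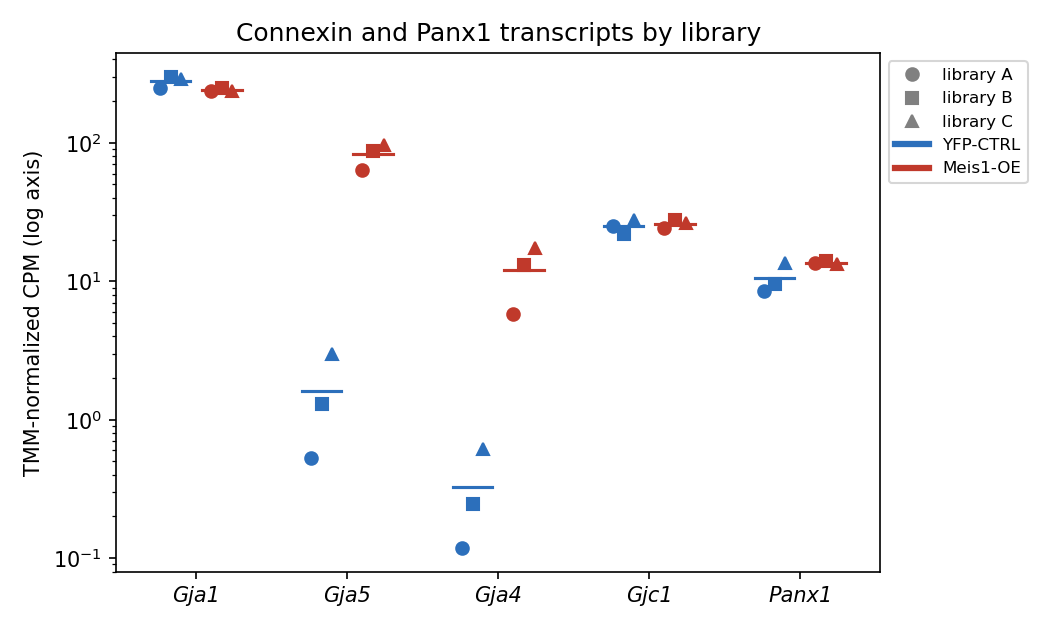
TMM-scaled CPM of the 5 members that were tested in each of the 6 libraries, on a log axis, with 1 point per library and a line at each group mean. Gja5 and Gja4 sit apart between the groups, with Gja5 at 64.1 to 97.1 CPM in Meis1-OE and 0.530 to 2.97 CPM in YFP-CTRL, while Gjc1 and Panx1 overlap.

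Gja5 and Gja4 kept the same order of libraries in both groups: A was lowest and C highest. Of 10221 other genes with a mean of at least 5 CPM, 398 had the same rank order over the 6 libraries as Gja5. Over the 6 libraries, which share the group difference, Pearson's r between the log2 CPM of Gja5 and Gja4 was 0.992, given as a description. The ratio of Gja5 to Gja4 counts was 11.1, 6.61 and 5.59 across the Meis1-OE libraries, against 4.5, 5.3 and 4.82 across the controls. The lowest ratio in Meis1-OE was thus above the highest in YFP-CTRL, by a narrow gap. Gja5 was chosen for its rise in Meis1-OE, so nothing is read from this gap. The highest control ratio, of library B, rests on 10 counts of Gja4.

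Gja1 encodes connexin 43 and was the most abundant member per length in both groups. It lies at chr10:56377300-56390419 on the plus strand. Its levels were 237, 247 and 235 CPM across the Meis1-OE libraries, against 248, 301 and 289 CPM across the controls. The groups did not overlap, by a narrow gap between 247.2 CPM in Meis1-OE B and 248.1 CPM in YFP-CTRL A. The means were 239.9 ± 6.43 and 279.3 ± 27.6 CPM (SD, n = 3 each). The log2 fold change of -0.22 (SE 0.11, 95% interval -0.48 to 0.04) did not pass edgeR's test (adjusted p = 0.258), and DESeq2 gave -0.23 (adjusted p = 0.368). With libraries scaled to their totals, a setting that moved the median of all genes to 0.15, Gja1 was at -0.07.

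Gjc1 encodes connexin 45, known from smooth muscle and the conduction system of the heart. Its levels were 24.2, 27.9 and 26.2 CPM in Meis1-OE and 24.9, 22.1 and 27.8 CPM in YFP-CTRL, and the groups overlapped. Its log2 fold change was 0.06 (95% interval -0.25 to 0.37, adjusted p = 0.801 by edgeR's quasi-likelihood test), an interval that spans changes in either direction.

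Panx1, the pannexin of the ATP release channel, had 13.5, 14.0 and 13.3 CPM in Meis1-OE and 8.48, 9.58 and 13.5 CPM in YFP-CTRL A, B and C. Controls A and B were below every Meis1-OE library, and control C lay within their range. The log2 fold change was 0.37 (95% interval -0.08 to 0.82, adjusted p = 0.269 by edgeR's quasi-likelihood test). It was 0.58 without YFP-CTRL C (adjusted p = 0.0147 by the same test) and 0.02 (adjusted p = 0.965) when the proliferation score entered the fit. The fit without YFP-CTRL C called 5215 of 16443 genes.

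Gja3 encodes connexin 46, best known from the lens, and Gjb2 encodes connexin 26, best known from epithelia and the inner ear. Gja3 had 1 count in YFP-CTRL A and 0 in the other libraries. Gjb2 had 0 counts in all 6 libraries, which allows up to 0.0648 to 0.0883 CPM by the floor of 3 counts. They are neighbours on chromosome 14, 40572 bases apart. Neither passed the filter on low counts, and no fold change is given for either.

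Among the 5 members tested, 2 were called higher and 0 lower. Over all genes tested, 6.87% were called in either direction, 4.14% higher and 2.73% lower. One of the 2 calls is Gja5, whose call the selection fixed, so nothing is read from that count, and the same holds for Gja5 in the count without overlap and in the median that follow. In values without overlap between groups, 2 members were higher (Gja5 and Gja4) and 1 lower (Gja1), where 17.2% of all genes were higher and 15.9% lower in that sense. The median log2 fold change was 0.37 over the 5 members and 0.01 over all genes.

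**Figure D2:**
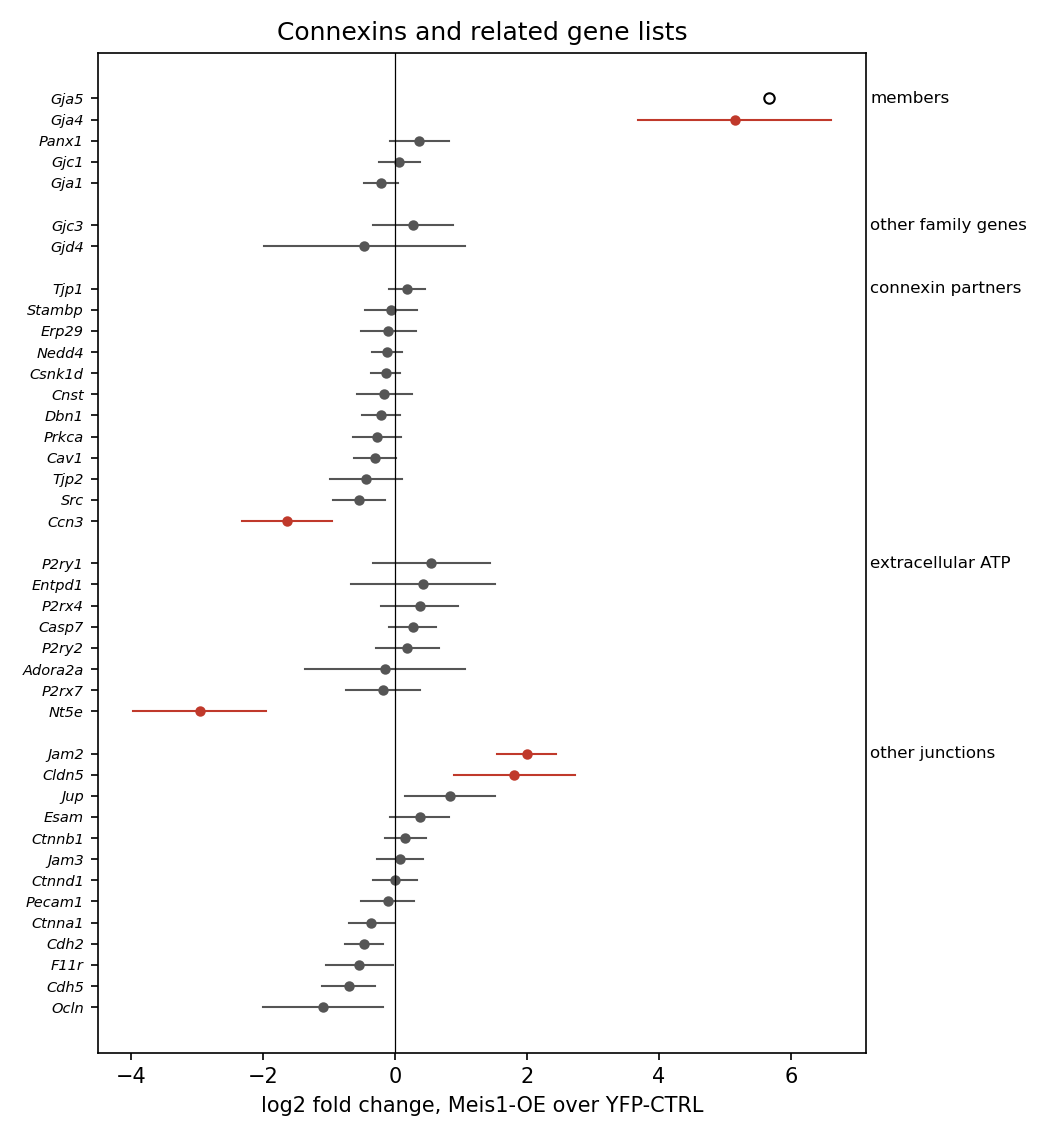
Log2 fold change (Meis1-OE minus YFP-CTRL) of tested genes of the family and of 3 related lists, with 95% intervals from edgeR's fit and called genes in red. Gja4 lies at 5.14, while the intervals of Gja1, Gjc1 and Panx1 include 0, and Gja5 at 5.66 is shown as a description.

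Because a long gene draws more reads, levels were compared between members only as CPM per kb of exon. In YFP-CTRL the order was Gja1 at 89.9 ± 8.90, Gjc1 at 4.99 ± 0.578, Panx1 at 3.51 ± 0.883, Gja5 at 0.278 ± 0.217 and Gja4 at 0.194 ± 0.154 CPM per kb (SD, n = 3 each). Gjc1 overlapped Panx1, and Gja5 overlapped Gja4. In Meis1-OE the order was Gja1 at 77.3 ± 2.07, Gja5 at 14.4 ± 2.94, Gja4 at 7.18 ± 3.49, Gjc1 at 5.21 ± 0.372 and Panx1 at 4.54 ± 0.115 CPM per kb. There Gja4 and Gjc1 overlapped, and with the length of the longest transcript they exchanged places, at 7.18 and 7.64 CPM per kb. By that length Gja5 was at 22.5 CPM per kb in Meis1-OE, and Gjc1 (6.46 to 8.16) and Panx1 (3.14 to 5.01) did not overlap in YFP-CTRL.

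The shares of Gja1, Gja5 and Gja4 in the summed connexin level differed between the groups without overlap, of which Gja5 was chosen for its rise. By union exon length the sum of the 6 connexins was 95.8, 108.1 and 108.2 CPM per kb in Meis1-OE and 85.1, 101.7 and 99.5 CPM per kb in YFP-CTRL, with overlap. By the longest transcript it was 104.4, 119.3 and 120.2 against 87.4, 103.8 and 102.4 CPM per kb, without overlap. Gja1 made up 93.9%, 95.3% and 93.5% of this sum in YFP-CTRL A, B and C and 79.8%, 73.7% and 70.0% in Meis1-OE. Gja5 made up 0.108%, 0.222% and 0.520% in YFP-CTRL and 11.6%, 14.0% and 15.6% in Meis1-OE. Gja4 went from 0.0822%, 0.143% and 0.368% to 3.56%, 7.21% and 9.54%. Gja1's own level was not called, and its share moves with the levels of the others. With Gja5 left out of the sum, a computation added after the values were seen, Gja1 made up 94.0% to 95.5% in YFP-CTRL and 83.0% to 90.3% in Meis1-OE. The share of Gjc1 overlapped, at 4.34% to 5.86% in YFP-CTRL and 4.84% to 5.15% in Meis1-OE. These are bulk libraries, in which more cells with a transcript and more transcript per cell cannot be told apart.

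**Figure D3:**
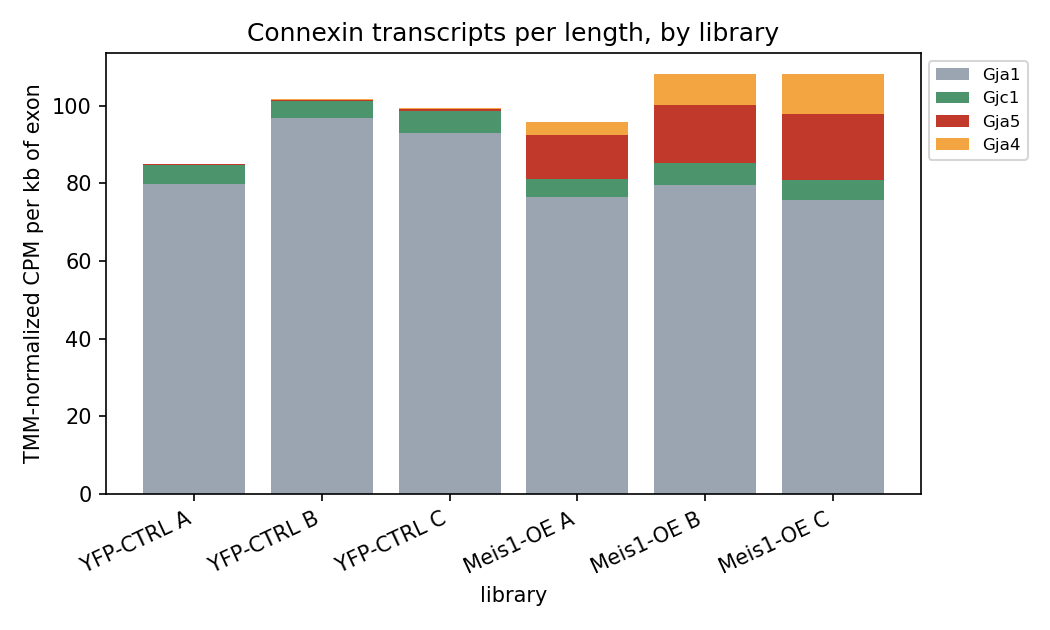
Connexin levels (CPM per kb of exon) in each of the 6 libraries, as stacked bars from 0. Of the bar, Gja1 holds 93.5% to 95.3% in YFP-CTRL and 70.0% to 79.8% in Meis1-OE, where Gja5 and Gja4 are visible above Gjc1.

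Within the controls, the libraries with higher Gja5 and Gja4 were also those with a higher proliferation score. YFP-CTRL C had a score of 6.63, close to the 6.65 to 6.71 of Meis1-OE. It had 2.97 CPM of Gja5 and 0.616 CPM of Gja4, below the 64.1 and 5.75 CPM of the lowest Meis1-OE library. Gja1 did not follow this order, since YFP-CTRL B had its highest level. The part of proliferation in these values was not tested, and YFP-CTRL C differed in other genes too, with the highest Acta2 count (902).

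**Figure D4:**
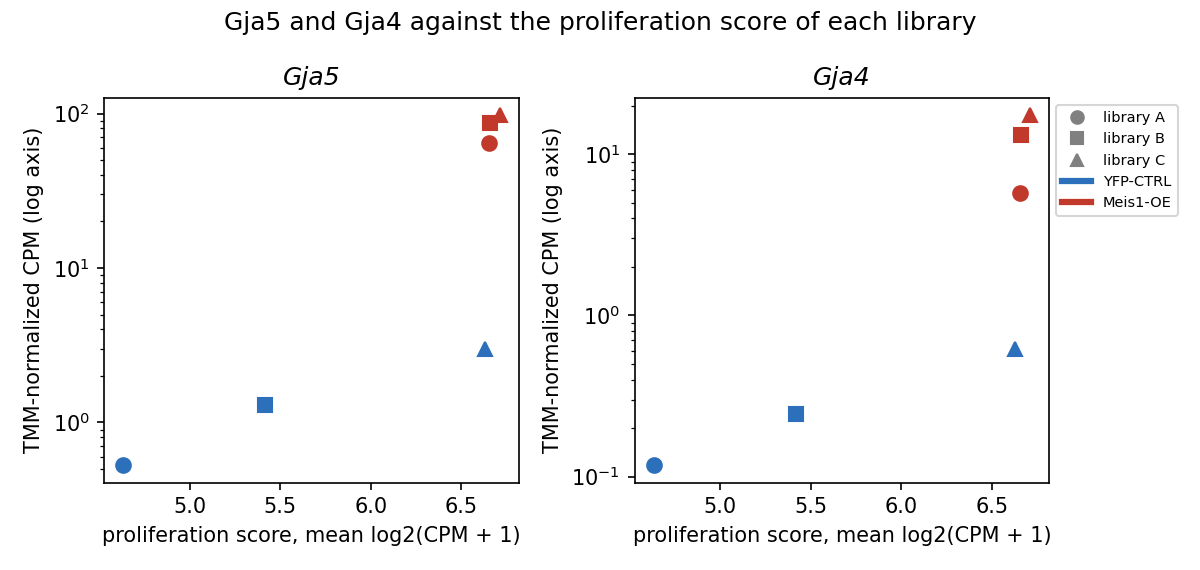
Level of Gja5 and Gja4 (CPM, log axis) against the proliferation score (mean log2(CPM + 1) of 15 genes), 1 point per library. YFP-CTRL C, at a score of 6.63, sits beside the Meis1-OE libraries on the horizontal axis and below them on the vertical axis.

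The genes whose log2 CPM followed Gja5 most closely over the 6 libraries, among 10221 genes of at least 5 CPM, were Arhgef11, Gad2, Tmem200a, Ckb and Tll1, with Pearson's r of 0.998 to 0.999. For Gja4 they were Tmem260, Irak2, Fam69a, Rhoq and Ndrg3, with the same range. For Gja1 they were Cdk6, Rps3a3, Usp16, Ndufb8 and Chrac1, with r of 0.985 to 0.996, and Rps3a3 may share reads with near-identical ribosomal copies. Of the 10221 genes, 43 exceeded 0.99 for Gja5, 54 for Gja4 and 3 for Gja1. Such r over 6 libraries share the group difference, for which Gja5 was chosen, and are given as a description. They do not measure the size of a change. The genes named for Gja5 had log2 fold changes from 0.42 (Arhgef11) to 4.22 (Gad2), against 5.66 for Gja5.

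The other 16 connexin and pannexin genes had few reads. Of these, 3 (Gjb1, Gjb6 and Gjd2) had 0 counts in every library, 10 never exceeded 3 counts, and 2 entered the test. Gjc3 had 55, 53 and 39 counts in Meis1-OE and 31, 36 and 39 in YFP-CTRL (log2 fold change 0.28, adjusted p = 0.538 by edgeR's quasi-likelihood test). Neither it nor Gjd4 was called, 0 had an unadjusted p under 0.05, and DESeq2 called 0.

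Proteins that bind or regulate connexins were read from a list of 12 genes, all tested. Of these, 0 were called higher and 1 lower, where 2.73% of all genes were lower, with a median log2 fold change of -0.19 against 0.01 over all genes. The gene that fell was Ccn3 (listed as Nov), which encodes a secreted matrix protein that binds connexin 43. It had 683, 654 and 783 counts in Meis1-OE and 1985, 2387 and 1231 in YFP-CTRL, with means of 15.4 ± 1.32 and 48.0 ± 18.1 CPM (SD, n = 3 each). Its log2 fold change was -1.64 (SE 0.29, adjusted p = 0.0223 by edgeR's quasi-likelihood test). The call was lost without any 1 of the Meis1-OE libraries (adjusted p from 0.0972 to 0.127), without YFP-CTRL B (0.0956), with the column letter as block (0.0525), and with the proliferation score (-0.92, 0.0578). Tjp1, the scaffold ZO-1 that binds the tail of connexin 43, was the single partner with a positive value (0.18, adjusted p = 0.362). Nedd4 was at -0.12 (adjusted p = 0.460) and Cav1 at -0.31 (adjusted p = 0.204).

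Around the ATP that pannexin and hemichannels release, 10 genes were listed and 9 tested, of which 0 were called higher and 1 lower, where 4.14% and 2.73% of all genes were. The median log2 fold change was 0.27, and it turned negative when the proliferation score entered the fit. Nt5e, which encodes the enzyme CD73 that turns AMP into adenosine, fell from 5.37 ± 2.28 to 0.684 ± 0.217 CPM (SD, n = 3 each). Its counts were 236, 261 and 125 in YFP-CTRL and 41, 21 and 32 in Meis1-OE, without overlap. The log2 fold change was -2.96 (SE 0.43, adjusted p = 0.0116 by edgeR's quasi-likelihood test), and the call was lost without Meis1-OE B (0.0722), Meis1-OE C (0.0694) or YFP-CTRL B (0.0621). The ATP receptor P2ry2 was at 0.18 (adjusted p = 0.606) and P2rx7 at -0.18 (adjusted p = 0.666).

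Among 13 adherens and tight junction genes, 2 were called higher and 0 lower, where 4.14% and 2.73% of all genes were, with a median log2 fold change of -0.00. DESeq2 called 2 higher and 2 lower (Cdh5 and Cdh2), and edgeR called 3 and 3 without YFP-CTRL C. Over all genes, DESeq2 called 1128 higher and 1115 lower of 54429. The edgeR fit without YFP-CTRL C called 2717 higher and 2498 lower of 16443 genes. Jam2, a junctional adhesion molecule, rose from 27.8, 31.1 and 24.6 CPM in YFP-CTRL to 84.4, 114 and 133 CPM in Meis1-OE (log2 fold change 1.99, SE 0.19, adjusted p = 0.0035 by edgeR's quasi-likelihood test), and passed under each of 12 alternatives. Cldn5, the main claudin of endothelial tight junctions, rose from 26.5, 67.1 and 81.3 CPM to 163, 205 and 245 CPM (1.81, SE 0.39, adjusted p = 0.0398). Its call was lost without any 1 of the Meis1-OE libraries, without YFP-CTRL B, and with the proliferation score (1.08, adjusted p = 0.143). Cdh5, which encodes VE-cadherin, was at -0.70 with an adjusted p of 0.0535 by edgeR and 0.0095 by DESeq2. Cdh2, which encodes N-cadherin, was at -0.47 with 0.0627 by edgeR and 0.0148 by DESeq2. Pecam1 (-0.11, adjusted p = 0.723) and Ctnnb1 (0.15, adjusted p = 0.491) did not pass.

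Markers were read to see which cells the libraries held. Over all genes tested, edgeR called 4.14% higher and 2.73% lower. DESeq2 called 1128 higher and 1115 lower of 54429 genes. Of 10 endothelial markers, all were tested, 1 was higher (Vwf) and 1 lower (Tek). DESeq2 called 1 higher and 3 lower (Tek, Cdh5 and Kdr), with Kdr at -1.23 and an adjusted p of 0.0504 by edgeR. Their summed level was 3266 to 4085 CPM in Meis1-OE and 4434 to 6149 CPM in YFP-CTRL. The 8 smooth muscle markers summed to 283 to 312 CPM in Meis1-OE and 147 to 332 CPM in YFP-CTRL, of which Smtn and Mylk made up most, while the defining gene Myh11 had at most 7 counts. The marker called higher was Des, with 20, 18 and 24 counts in Meis1-OE and 0, 2 and 2 in YFP-CTRL (adjusted p = 0.015 by edgeR's quasi-likelihood test). Acta2 reached 902 counts in YFP-CTRL C and at most 152 in any other library. Tagln (29 against at most 7) and Cnn1 (13 against at most 5) were also highest there, while Smtn, Myh11 and Des were not. The 6 fibroblast markers summed to 11.9 to 12.03 CPM in Meis1-OE and 16.1 to 49.5 CPM in YFP-CTRL, mostly Pdgfra. Lum was at 0 and Dcn had at most 2 counts. The 6 macrophage markers summed to 0.197 to 0.903 and 0.245 to 0.383 CPM, with C1qa, C1qb and Tyrobp at 0. Of 6 epithelial markers, Epcam, Cdh1 and Krt18 were at 0. The sum of 18.9 to 35.7 CPM in Meis1-OE against 0.618 to 2.22 CPM in YFP-CTRL was mostly Krt19. Krt19 was the 1 epithelial marker tested and was called higher (log2 fold change 4.19, adjusted p = 0.0052 by edgeR's quasi-likelihood test). The 5 lymphatic markers summed to 178 to 187 CPM in Meis1-OE and 280 to 558 CPM in YFP-CTRL, with Pdpn and Ccl21a at 0. Lyve1 fell (log2 fold change -1.84, adjusted p = 0.0301 by edgeR's quasi-likelihood test), and Flt4 was at 0.05 (adjusted p = 0.948). The part of these differences in the connexin values was not tested.

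**Figure D5:**
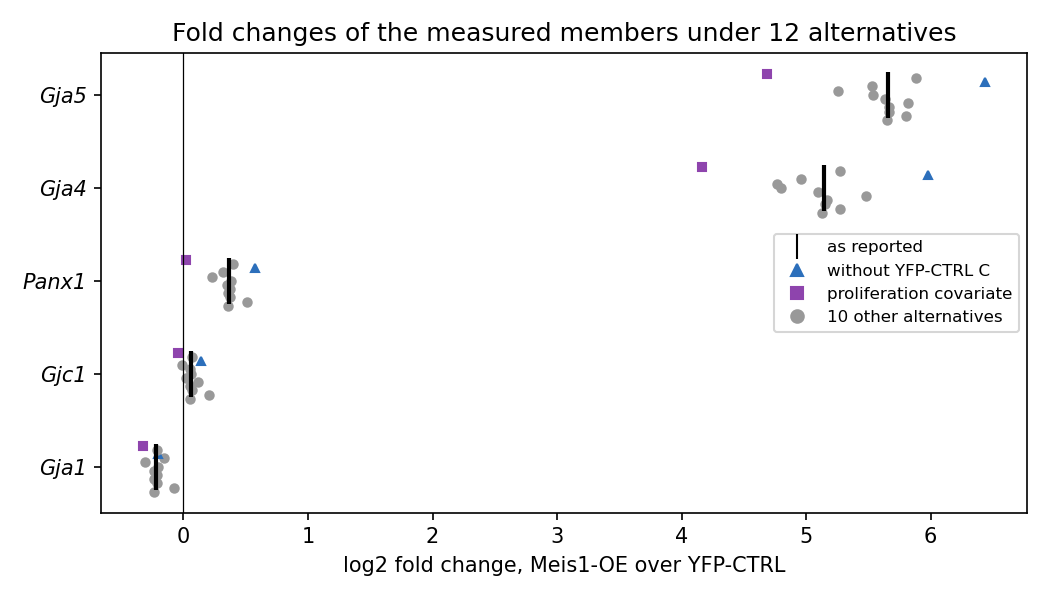
Log2 fold change of the tested members as reported (bar) and under 12 alternatives (points). Gja5, chosen for its rise and shown as a description, stays between 4.69 and 6.44. Gja4 stays between 4.17 and 5.98, while Gjc1 lies on both sides of 0.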

How the data were processed

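RNA of 300000 cells per sample was sequenced after ribodepletion. The authors deposited estimated counts per gene, not normalized, made with build mm10 per the labels; the aligner, annotation and strand setting are not given in the sources used here. Counts were rounded to whole numbers, filtered with filterByExpr, scaled by TMM and tested with edgeR 4.0.16 (quasi-likelihood, R 4.3.3) in 1 comparison of 3 against 3 libraries, with Benjamini-Hochberg adjustment over all genes and a threshold of 0.05. P-values come from a test that sets the group difference against the spread between these samples. An exact permutation test of 3 against 3 cannot go below a two-sided p of 0.1. DESeq2 1.42.0, other scalings and filters, a proliferation covariate, a block by column letter and leaving out each library were alternatives. Likeness used log2 CPM with a prior count of 2. The code was tested on simulated data. Exact intervals used scipy 1.17.1. The members and the gene lists were chosen with earlier results of these data known. Named genes were the members, the called genes of each list and its 3 most abundant tested genes; some are not reported here. Genes singled out among markers were chosen after their values were seen. Lengths are union exons of GENCODE vM1, an annotation of an older build, used for lengths only.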

Additional observations from a re-analysis of the deposited data

How the results depend on the processing

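Over all genes, 1103 were called, against 2243 by DESeq2, 612 with the proliferation covariate and 131 to 5215 when 1 library was left out (131 without Meis1-OE B, 5215 without YFP-CTRL C). Scaling to library totals turned the split of higher and lower calls from 665 and 438 to 1048 and 180. Taking the letter of each column for a replicate block gave 733 calls. Same-letter libraries correlated in their deviations at 0.267, 0.120 and 0.0697, and libraries of different letters at -0.269 to 0.214. These values do not settle whether the letters pair the samples. The main fit held no block because the labels do not tie the letters to replicates. Under the block Gja5 was at 5.89 and Gja4 at 5.27 (adjusted p = 0.00342 by edgeR), and the connexin partner call was lost (0 called, Ccn3 adjusted p = 0.0525). Called genes ranged from 0 to 3 for the partners, 0 to 3 for the ATP list and 1 to 6 for the junction list when a library was left out; the junction list gave 4 by DESeq2 and 1 with the covariate. Log2 fold changes near 0 changed sign: Gjc1 (-0.0090 to 0.14 without a library, -0.041 with the covariate), Pecam1 (-0.28 to 0.031, and 0.033 with library totals), Nedd4 (0.016 with library totals), P2ry2 (-0.034 to 0.34, and -0.21 with the covariate), P2rx7 (-0.38 to 0.14, and 0.030 with the covariate) and Gjd4 (0.35 with the covariate). The causes were not tested. Gja4 kept its direction under all 12 alternatives. So did Gja5, which was chosen for its rise in these libraries, so nothing is read from its direction. Ranking by Spearman's rho was not possible because 398 genes tied at 1 for Gja5 and Gja4.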
